A study of Danio rerio with 6 samples.

Results

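Laminins are secreted proteins of the basement membrane, the sheet of matrix that lies under epithelia and around muscle fibers, vessels and the notochord. Each laminin is a trimer of an alpha, a beta and a gamma chain. Integrins are cell surface receptors made of an alpha and a beta chain, and they tie laminins, collagens, fibronectin and other matrix proteins to the actin cytoskeleton. In the zebrafish trunk laminins are needed for the notochord and for the attachment of muscle fibers, and integrins also help to shape the somite boundaries.

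The laminin and integrin genes were taken from the gene tables by their symbols, as genes named lama, lamb or lamc with a number, or itga or itgb with a number or the letter v, leaving out itgb1bp genes. The rule itself used no measured value, although it was set with earlier results of these data known. It gave 40 of 24789 gene rows, of which 11 were laminin genes and 29 carried an integrin name. Only the 18555 rows with a symbol could be matched, so a laminin or integrin gene in a row without one would be missed. Among these, the name itgb3bp belongs to a nuclear protein of the centromere in mammals and not to an integrin chain. Further gene IDs for lama2, LAMA1, LAMB1, ITGA4 and ITGB1 had no row in the gene tables used here and are not analysed. Many genes carry a human symbol in capitals, and genes that share one are given with their ID.

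The RNA came from trunks of zebrafish (Danio rerio) embryos 24 to 26 h after fertilization, without head and yolk. The 3 loss of function libraries were made from qkia-/- embryos injected with a qkic morpholino, an antisense oligonucleotide that blocks a chosen transcript. The 3 control libraries were made from qkia+/+ or qkia+/- siblings injected with a control morpholino, also at 0.6 pmol. Embryos were sorted into the groups by their shape, per the labels, and how many embryos made up a library is not stated there. Genotype and morpholino changed together, so their parts in a difference cannot be told apart.

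The gene tables held between 38804265 and 44799398 reads per library. After division by each library's size factor, these totals were higher in every loss of function library than in every control. The mutated gene qkia had 5.42 ± 1.86 normalized reads in loss of function trunks and 67.5 ± 12.6 in controls (SD, n = 3 each). Of 18917 genes tested across the series, 7935 differed at a limma adjusted p under 0.05, which is 41.9%. Replicates of the control group varied more, with a larger SD on the log2 scale than loss of function replicates in 25 of the 34 laminin and integrin genes tested (73.5%) and in 67.4% of all genes tested. Defining markers of muscle, notochord, epidermis and neural tube were present in every library, and in the marker lists 0 genes were at 0 in all 6 libraries.

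Single chains of both families changed in loss of function trunks, and the changes were small and went both ways. Of the 40 genes, 34 entered the test by reaching a normalized read count of 10 in 3 or more libraries, while 6 did not. Of those 34, 8 rose and 4 fell at a limma adjusted p under 0.05, and 22 did not pass. The 12 that passed make up 35.3% of those tested, against 41.9% of all genes, a share close to that background. In the upward direction 21.9% of all genes passed, and in the downward direction 20%. The groups did not overlap for 13 of the 34 (38.2%), against 52.1% of all genes. Of the 34, 0 changed by at least 2-fold with a limma adjusted p under 0.05, as against 2.93% of all genes. Log2 changes ran from -0.68 to 0.73, with a median of 0.02, against a median of 0.00048 over all genes tested. Regardless of sign, the median size of the log2 change was 0.196, near the 0.225 of all genes tested.

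**Figure D1:**
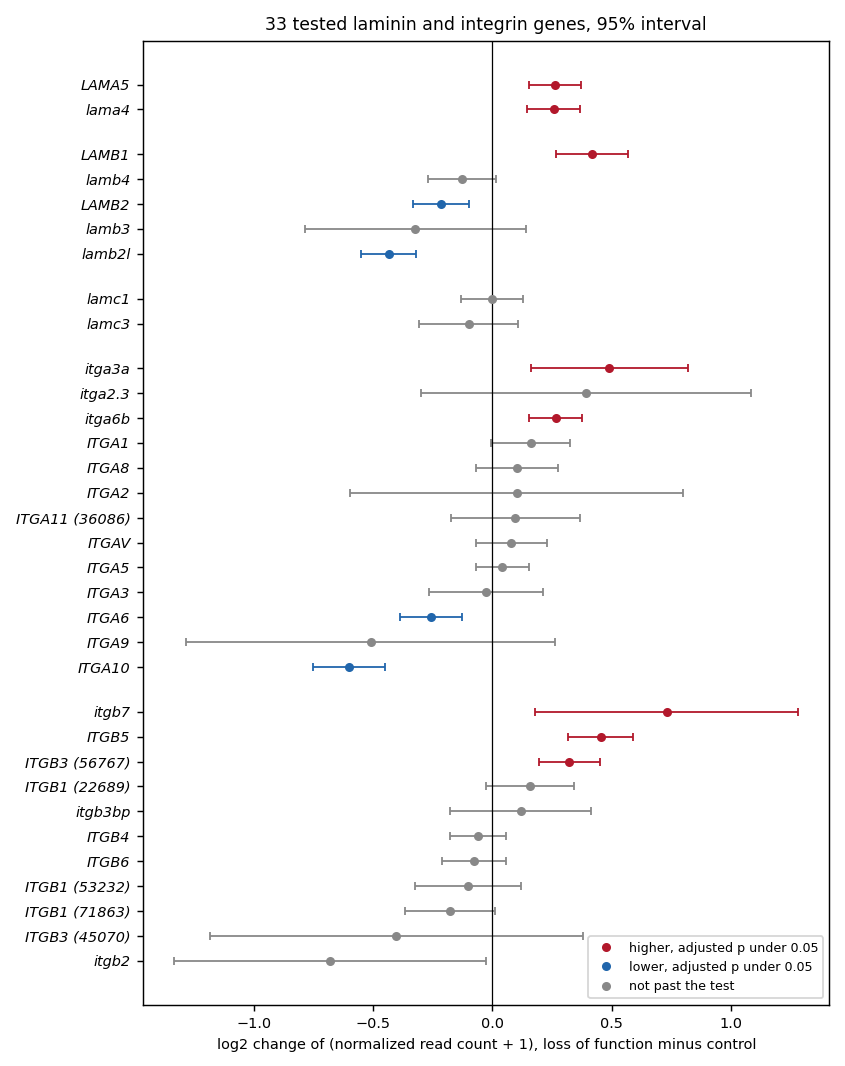
Log2 change of the normalized read count plus 1 (x axis, loss of function minus control) for 33 tested genes, in rows grouped from laminin alpha, beta and gamma to integrin alpha and beta. Points are limma estimates with 95% intervals, red and blue mark the 8 genes that rose and the 4 that fell, and both tested laminin alpha genes lie right of 0 while LAMB2 and lamb2l lie left of it.

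Among laminin alpha chains, which carry most of the sites that integrins and dystroglycan bind, both tested genes rose. LAMA5, whose chain is widespread under epithelia in mammals, had 5677, 5676 and 5864 normalized reads in loss of function trunks, against 4880, 4484 and 5024 in controls. Every loss of function library was above every control. The means were 5739 ± 108 and 4796 ± 280 (SD, n = 3 each), and the log2 change was 0.26 (SE 0.05, limma adjusted p = 6.48e-04). The gene lama4, whose chain is known from vessel walls in mammals and acts in the notochord of zebrafish, had 3652, 3508 and 3690 normalized reads in loss of function trunks, against 3081, 3170 and 2840 in controls. Its groups did not overlap either, and its log2 change was also 0.26 (SE 0.05, limma adjusted p = 9.01e-04). The last alpha gene analysed here was lama3, a chain of epithelial anchoring in mammals. It had only 4, 5 and 2 reads in loss of function trunks, against 9, 10 and 4 in controls, and was not tested. LAMA1 and lama2 are not among the alpha genes analysed, so these values do not cover the whole class.

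Laminin beta genes divided. LAMB1 (ENSDARG00000045524), a beta chain of early basement membranes, had 822, 878 and 911 normalized reads in loss of function trunks, against 712, 623 and 621 in controls. All loss of function libraries were higher, by 1.33-fold between the means (log2 change 0.42, SE 0.07, limma adjusted p = 1.82e-04). LAMB2, which encodes the beta chain concentrated at neuromuscular synapses and in the kidney filter of mammals, fell. It had 7502, 7264 and 7544 normalized reads in loss of function trunks and 9128, 8902 and 7929 in controls. The lowest control, replicate 3, was still above every loss of function library, and the log2 change was -0.22 (SE 0.05, limma adjusted p = 0.00443, but 0.0635 without a variance trend).

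The related gene lamb2l fell further. It had 1349, 1387 and 1359 normalized reads in loss of function trunks, against 1829, 1934 and 1778 in controls, with groups far apart for their spread. Its mean was 1.35-fold lower in loss of function trunks (log2 change -0.44, SE 0.05, limma adjusted p = 8.78e-06). In lamb4 the loss of function libraries, at 1198, 1199 and 1277, overlapped the controls, at 1433, 1201 and 1390. Its log2 change of -0.13 missed the threshold (limma adjusted p = 0.137), and it turned on single controls, at -0.08 without control replicate 1 (limma adjusted p = 0.393) and -0.21 without control replicate 2, where it passed (limma adjusted p = 0.00885). The scarce lamb3, an epithelial chain in mammals, had 32.0 ± 5.09 normalized reads in loss of function trunks and 40.2 ± 5.26 in controls (SD, n = 3 each) and did not pass (limma adjusted p = 0.254).

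Of the laminin gamma genes, lamc1 and lamc3 did not pass the test. The gene lamc1, whose loss in the zebrafish sleepy mutant leaves the notochord undifferentiated, was at 7717, 7597 and 7317 normalized reads in loss of function trunks, against 8396, 6909 and 7411 in controls. Loss of function values lay inside the range of the controls, and the log2 change was -0.0010 with a 95% interval from -0.13 to 0.13 (limma adjusted p = 0.991). The interval holds changes of either sign up to that size. For lamc3 the log2 change was -0.10 (95% interval -0.31 to 0.11, limma adjusted p = 0.443).

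**Figure D2:**
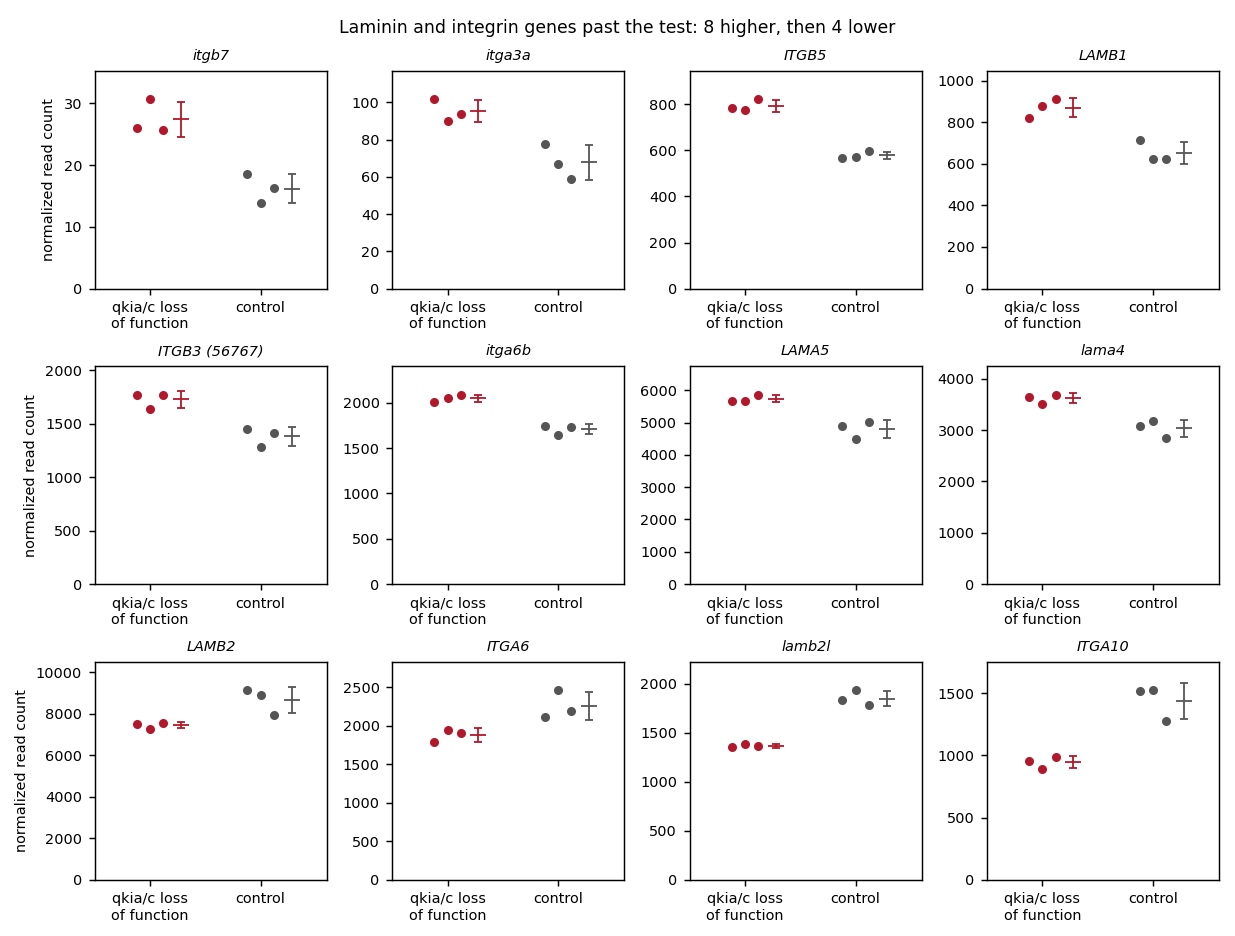
Normalized read count (y axis, from 0, one scale per panel) of the 8 genes that rose and the 4 that fell, with loss of function left of control. Dots are libraries and the bar beside them is the mean with SD (n = 3 each), and in all 12 panels the groups do not overlap.

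Integrin alpha chains that bind laminin moved in opposite directions. ITGA6 and itga6b share a human counterpart, a laminin receptor chain that pairs with beta 4 in the hemidesmosomes of skin and with beta 1 elsewhere. ITGA6 fell, with 1783, 1949 and 1906 normalized reads in loss of function trunks and 2108, 2460 and 2190 in controls (log2 change -0.26, SE 0.06, limma adjusted p = 0.00276, but 0.0517 without a variance trend). Its copy itga6b rose, with 2011, 2048 and 2091 normalized reads in loss of function trunks and 1742, 1644 and 1736 in controls (log2 change 0.26, SE 0.05, limma adjusted p = 5.98e-04). For both copies the groups did not overlap. The log2 ratio of ITGA6 to itga6b averaged -0.13 in loss of function trunks (range -0.17 to -0.07) and 0.40 in controls (0.27 to 0.58). The difference of -0.52 had an exact permutation p = 0.1 (2-sided), the smallest that 3 against 3 libraries can give, and 0.2 after Benjamini-Hochberg adjustment over 6 pairs of copies.

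ITGA3 and itga3a share another laminin receptor chain, known from skin and kidney in mammals. The gene itga3a rose, with 102, 90.1 and 93.7 normalized reads in loss of function trunks and 77.6, 67.1 and 58.9 in controls. The groups did not overlap, and the log2 change was 0.49 (SE 0.16, limma adjusted p = 0.0182). It did not pass without loss of function replicate 1 (limma adjusted p = 0.0814), without control replicate 3 (0.0614) or with DESeq2 (adjusted p = 0.0583). ITGA3 had 376, 504 and 399 normalized reads in loss of function trunks, against 513, 394 and 396 in controls, with 1 high library in each group (log2 change -0.03, limma adjusted p = 0.872). The log2 ratio of ITGA3 to itga3a differed by -0.52 between the groups, again with an exact permutation p = 0.1.

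The sparse itga6l lay below the limit for testing. Its libraries held 5, 2 and 1 reads in loss of function trunks, against 13, 9 and 9 in controls. The groups did not overlap, and with no limit on low values the log2 change was -1.68 (limma adjusted p = 0.00809). With so few reads its size is uncertain.

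Among alpha chains that bind collagen in mammals, ITGA10 had the largest fall of the genes that passed. This chain is known from cartilage in mammals. Loss of function trunks had 956, 890 and 989 normalized reads and controls 1520, 1525 and 1273. The highest loss of function library stayed below the lowest control, and the mean was 1.52-fold lower (log2 change -0.60, SE 0.07, limma adjusted p = 5.93e-06). ITGA1 had 549 ± 45.1 normalized reads in loss of function trunks and 491 ± 28.6 in controls (SD, n = 3 each), and its log2 change of 0.16 missed the threshold (limma adjusted p = 0.116). For ITGA11 (ENSDARG00000036086) the log2 change was 0.10 (95% interval -0.17 to 0.37), and the second ITGA11 gene (ENSDARG00000007950) had 3 to 5 reads per loss of function library and 6 to 11 per control.

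Copies of the alpha 2 collagen receptor were scarce or uneven. The gene itga2.3 had 125, 104 and 114 normalized reads in loss of function trunks, against 109, 37.5 and 157 in controls. Control replicate 2 stood far below the rest. The log2 change of 0.39 did not pass (limma adjusted p = 0.361), was -0.20 without control replicate 2 and 0.82 without control replicate 3 (limma adjusted p = 0.0230). ITGA2 stayed between 9.87 and 18.3 normalized reads in all libraries, and itga2.1 had at most 4 reads in any library. Reads of these near neighbors may be divided among copies, so their single values are uncertain.

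Alpha chains that bind the RGD motif of fibronectin and vitronectin, ITGA5, ITGAV and ITGA8, did not pass the test. ITGA5, needed with fibronectin for somite boundaries in zebrafish, had 1832 ± 52.4 normalized reads in loss of function trunks and 1780 ± 55.7 in controls (SD, n = 3 each). Its log2 change was 0.04 (95% interval -0.07 to 0.15) and turned to -0.01 after quantile normalization. ITGAV, the alpha chain of the vitronectin receptors, had 1834, 1840 and 1778 normalized reads in loss of function trunks, against 1914, 1508 and 1764 in controls (log2 change 0.08, 95% interval -0.07 to 0.23). ITGA8 had a log2 change of 0.10 (95% interval -0.07 to 0.27). ITGA9, which binds tenascin and other ligands in mammals, had 6 to 9 reads in loss of function trunks and 10 to 14 in controls, and it entered the test because all controls reached a normalized count of 10 (log2 change -0.51, limma adjusted p = 0.284).

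In mammals ITGB3 and ITGB5 encode beta chains that pair with alpha v, and here both rose. ITGB5 had 786, 773 and 823 normalized reads in loss of function trunks and 568, 572 and 597 in controls. Its groups lay far apart for their spread, with a 1.37-fold higher mean (log2 change 0.45, SE 0.06, limma adjusted p = 3.21e-05). The abundant ITGB3 gene (ENSDARG00000056767) had 1773, 1639 and 1772 normalized reads in loss of function trunks and 1452, 1283 and 1414 in controls. It was 1.25-fold higher, with no overlap (log2 change 0.32, SE 0.06, limma adjusted p = 4.03e-04). The scarce ITGB3 gene (ENSDARG00000045070), with 15.9, 16.8 and 6.69 normalized reads in loss of function trunks and 22.9, 12.8 and 15.2 in controls, did not pass (log2 change -0.40, limma adjusted p = 0.405). Its change rested on single libraries, at -0.0099 without loss of function replicate 3 and -0.18 without control replicate 1. The log2 ratio of the scarce to the abundant copy differed by -0.72 between the groups, which overlapped (exact permutation p = 0.2), and by -0.31 without loss of function replicate 3.

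Other partners of alpha v in mammals did not pass. ITGB6, known from epithelia, had a log2 change of -0.08 (95% interval -0.21 to 0.06). ITGB8 had 7, 8 and 8 reads in loss of function trunks, against 17, 10 and 11 in controls, and was not tested.

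ITGB1 encodes the beta chain shared by most laminin, collagen and fibronectin receptors, and none of its 3 genes passed. The one with the most reads (ENSDARG00000071863) had 767, 800 and 783 normalized reads in loss of function trunks, against 1069, 821 and 790 in controls. Control replicate 1 stood above the others, and the log2 change was -0.18 (limma adjusted p = 0.125). It was -0.04 without that library (limma adjusted p = 0.651), and -0.26 without control replicate 3, where it passed (limma adjusted p = 0.0181). ENSDARG00000022689 had 345, 336 and 358 normalized reads in loss of function trunks, against 299, 341 and 292 in controls (log2 change 0.16, limma adjusted p = 0.164), and passed without control replicate 2 (0.23, limma adjusted p = 0.0482). ENSDARG00000053232 had a log2 change of -0.10 (95% interval -0.32 to 0.12). These genes are close copies, so reads may be divided between them. The log2 ratio of ENSDARG00000022689 to ENSDARG00000071863 averaged -1.18 in loss of function trunks and -1.51 in controls, with no overlap (exact permutation p = 0.1). The difference of 0.33 was 0.17 without control replicate 1. For both other pairings of ITGB1 genes the groups overlapped.

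ITGB4, the hemidesmosome beta chain of skin in mammals and the most abundant beta gene by reads, had 2470, 2442 and 2429 normalized reads in loss of function trunks, against 2547, 2733 and 2387 in controls. The groups overlapped, and the log2 change was -0.06 (95% interval -0.18 to 0.06).

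Beta and alpha chains of blood cells were near the limit of detection. The gene itgb7, a lymphocyte chain in mammals, had 26, 31 and 23 reads in loss of function trunks, against 21, 14 and 16 in controls. The groups did not overlap, before or after division by the size factors, and the log2 change of 0.73 (SE 0.26) passed narrowly (limma adjusted p = 0.0326). It did not pass with DESeq2 (adjusted p = 0.124), with no limit on low values (limma adjusted p = 0.0535), or without any of the 3 loss of function replicates (0.0656, 0.121 and 0.0593) or control replicate 2 (0.0896). The leukocyte chain itgb2 had 13, 24 and 14 reads in loss of function trunks, against 38, 35 and 18 in controls. Its log2 change of -0.68 did not pass (limma adjusted p = 0.0879), and it passed without loss of function replicate 2 (-0.91, limma adjusted p = 0.0448) or control replicate 3 (-0.97, limma adjusted p = 0.0155). The thrombocyte chain itga2b had at most 2 reads in any library.

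Blood cell markers moved in the same libraries, with primitive erythrocyte markers furthest by the median. Of 11 tested erythrocyte markers 10 rose and 1 fell (100% called, against 41.9% of all genes), with a median log2 change of 2.17. Their summed normalized reads were 55044 to 56143 in loss of function trunks and 6800 to 18659 in controls, with 67.9% from the globin gene hbae3. The gene that fell was the scarcer SLC4A1 gene (ENSDARG00000024560), matched by human name. It had 31.2 ± 10.9 normalized reads in loss of function trunks and 54.5 ± 3.67 in controls (SD, n = 3 each). The abundant SLC4A1 gene (ENSDARG00000012881) rose (log2 change 2.53). Of 13 planned leukocyte markers only 9 were found. Of the 10 leukocyte genes tested 3 rose and 5 fell (80% called, against 41.9% of all genes), with a median log2 change of -0.43. Their sums were close, at 3557 to 3592 in loss of function trunks and 3581 to 3978 in controls, but were made up mostly of rac2 and the CXCR4 genes. Single leukocyte markers went both ways, among them the CXCR4 genes, matched by human name to a single planned marker (log2 changes 0.26 and -0.29). CEBPA rose (log2 change 0.34, limma adjusted p = 0.00146) and SPI1 did not pass (-0.11, limma adjusted p = 0.555), while others fell. The lysozyme gene lyz had 32.9 ± 1.49 normalized reads in loss of function trunks and 143 ± 27.7 in controls (SD, n = 3 each; log2 change -2.07, limma adjusted p = 1.24e-07). The metalloproteinase gene mmp13a had 5.58 ± 1.99 in loss of function trunks and 38.4 ± 18.1 in controls (SD, n = 3 each; log2 change -2.53, limma adjusted p = 3.59e-05), and CORO1A, which encodes an actin-binding protein of leukocytes, had a log2 change of -0.82 (limma adjusted p = 1.26e-04). These genes were picked after their values were seen. Of 8 tested thrombocyte markers 5 rose and 1 fell (75% called, median log2 change 0.21), with sums of 13103 to 13297 in loss of function trunks and 10766 to 12110 in controls, of which NFE2 held 66.4%. The scarcer GP1BB (log2 change 1.56), gp9 (1.39) and GFI1B (2.27), picked after their values were seen, were among those that rose. The part of blood cells in the values of itgb7 and itgb2 was not tested. In bulk tissue fewer cells of a type and less RNA per cell cannot be told apart. The nuclear protein gene itgb3bp had a log2 change of 0.12 (limma adjusted p = 0.527).

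Summed over the genes of a chain class, laminin alpha reads were higher and laminin beta reads lower in loss of function trunks. The alpha genes gave 9332, 9190 and 9557 normalized reads in loss of function trunks and 7969, 7664 and 7867 in controls. The beta genes gave 10907, 10755 and 11123 in loss of function trunks and 13137, 12701 and 11763 in controls, of which LAMB2 held 68.6% on average. For neither class did the groups overlap. The sums of lamc1 and lamc3, of which lamc1 held 97.3%, were 7748 ± 196 in loss of function trunks and 7791 ± 763 in controls (SD, n = 3 each). The 17 integrin alpha genes gave 10291 ± 195 in loss of function trunks and 10562 ± 198 in controls, and the 11 integrin beta genes 7665 ± 165 in loss of function trunks and 7388 ± 274 in controls (SD, n = 3 each), with overlap in both classes. The sums weight long transcripts more, leave out the gene IDs that are not analysed here and were not tested. They are also not shares of all reads, whose normalized total was higher in every loss of function library.

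**Figure D3:**
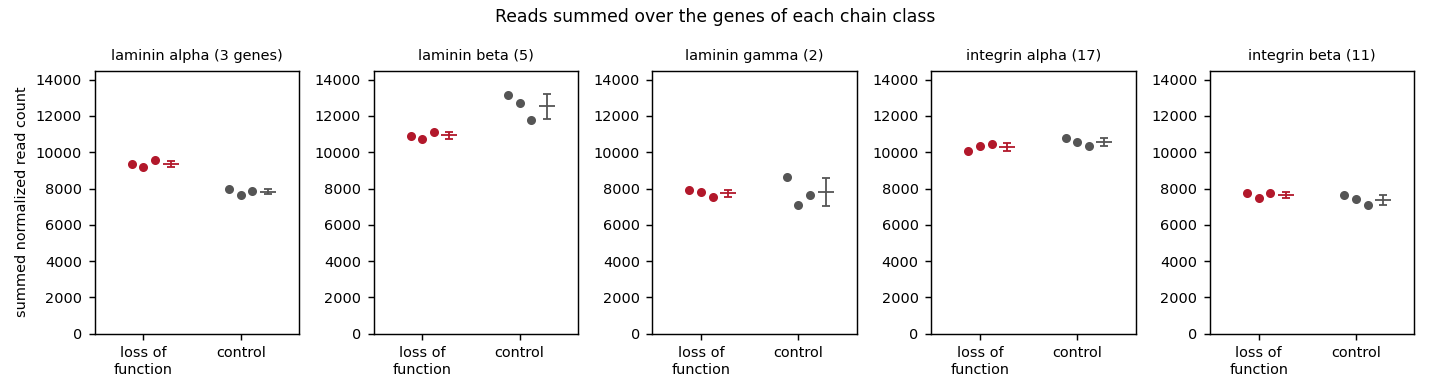
Normalized reads summed over the genes of each chain class (y axis, from 0), with loss of function left of control in each panel and itgb3bp left out. Dots are libraries and the bar is the mean with SD (n = 3 each), and the groups separate for laminin alpha (higher in loss of function) and laminin beta (lower) but overlap for laminin gamma and both integrin classes.

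Among tissues that lie on basement membranes or border them, the marker sums of several differed between the groups. Epidermal markers summed to between 899239 and 945983 normalized reads in loss of function trunks and between 745000 and 842608 in controls. Of this, 81.5% came from the keratin gene krt4, which did not pass the main test (limma adjusted p = 0.0877). It passed with edgeR (adjusted p = 0.0227) and DESeq2 (adjusted p = 2.88e-04). Of 11 tested epidermal genes 2 rose and 0 fell, a share called of 18.2% against 41.9% of all genes, and the median log2 change was 0.07. Notochord markers summed to between 138861 and 141345 in loss of function trunks and between 109943 and 116648 in controls, mostly COL2A1, with 5 of 11 higher and 2 lower (63.6% called, median 0.10). Neural tube markers summed to between 43737 and 44228 in loss of function trunks and between 47151 and 53611 in controls, with 8 of 14 lower and 0 higher (57.1% called, median -0.23). These groups did not overlap, while the sums of muscle markers did, at 740372 to 752789 in loss of function trunks and 678736 to 868590 in controls (2 of 12 higher and 6 lower, 66.7% called, median -0.15). Normalized totals over all genes were also higher in every loss of function library, so a higher marker sum need not be a larger share of reads. Endothelial markers gave sums of 3069 to 3221 in loss of function trunks and 3172 to 3413 in controls, with 2 of 8 higher and 2 lower (50% called). Markers of the myoseptum and tendon summed to between 214986 and 222124 in loss of function trunks and between 172625 and 185266 in controls. The collagen gene col1a1a made up 52.9% of this. Of 10 tested genes 5 were higher and 3 lower (80% called, median 0.18). SCX, picked after its values were seen, was among those that fell (log2 change -0.54, limma adjusted p = 0.0333). The groups of SCX overlapped, and it did not pass with DESeq2 (adjusted p = 0.0506). With 1 library left out its limma adjusted p reached up to 0.164. Neural crest and pigment markers summed to between 11238 and 11494 in loss of function trunks and between 12728 and 14403 in controls, with 0 of 10 higher and 6 lower (60% called, median -0.20). Markers of hatching gland and yolk or liver summed to between 6206 and 6746 in loss of function trunks and between 5072 and 5727 in controls. Of 8 tested genes 4 were higher, 0 lower and 4 did not pass (50% called, median 0.18). The rises of fabp10a (log2 change 2.55, limma adjusted p = 3.0e-08) and he1.3 (1.53, limma adjusted p = 4.8e-08) were picked after their values were seen. The part of tissue makeup in the changes of laminin and integrin genes was not tested.

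The other components of the basement membrane gave 7 of 21 tested genes higher and 2 lower, with a median log2 change of 0.18 against 0.00048 over all genes. The share called, 42.9%, was near the 41.9% of all genes. By direction, 33.3% were higher, against 21.9% of all genes, and 9.52% lower, against 20%. Those that rose included EFEMP2 (ENSDARG00000020811, log2 change 0.66), a fibulin family gene of elastic matrix, and the type IV collagen gene COL4A1 (0.60). AGRN, whose product agrin binds laminin and dystroglycan and clusters acetylcholine receptors, fell (-0.32), as did the type IV collagen gene col4a3 (-0.28). NID2, whose product nidogen links laminin to type IV collagen, was among the genes that rose (0.23), and NID1 did not pass (0.12, limma adjusted p = 0.0703). HSPG2, which encodes perlecan, did not pass either (0.20, limma adjusted p = 0.150). NID1, NID2 and HSPG2 were picked as laminin partners after the values were seen.

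Of the other integrin ligands, 6 of 21 tested genes rose and 3 fell (median 0.13), again 42.9% against 41.9% of all genes. By direction, 28.6% rose, against 21.9% of all genes, and 14.3% fell, against 20%. TGFBI (0.50) and MFGE8 (ENSDARG00000045803, 0.39), ligands of alpha v integrins in mammals, rose. The fibronectin genes parted, with FN1 (ENSDARG00000019815) higher (0.33) and FN1 (ENSDARG00000006526) lower (-0.78).

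Genes that connect integrins with actin and signalling gave 4 of 38 higher and 9 lower (median -0.06). The 34.2% called was below the 41.9% of all genes. By direction, 10.5% were higher, against 21.9% of all genes, and the 23.7% lower was near the background of 20%. SRC rose (0.46) and the alpha-actinin gene ACTN1 rose (0.29). GIT2 (ENSDARG00000061915, -0.80) and ARHGEF7 (ENSDARG00000006299, -0.53), partners in a complex at focal adhesions, both fell. The core adaptor ILK, the integrin-linked kinase, had a log2 change of 0.07 (limma adjusted p = 0.264) and the kindlin gene FERMT2 of -0.02 (limma adjusted p = 0.711). ILK and FERMT2 were picked after the values were seen.

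Dystroglycan, the other main laminin receptor of muscle, was described with its complex. DAG1, its gene, had 12367, 12396 and 11947 normalized reads in loss of function trunks and 10400, 10565 and 10755 in controls, with no overlap. Of 13 tested genes of the complex 3 rose and 2 fell (median 0.06), or 38.5% against 41.9% of all genes. DAG1 (log2 change 0.21) and the caveolin gene cav3 (0.19) rose, and the dystrophin gene dmd (-0.32) and the syntrophin gene SNTB2 (-0.27) fell. Enzymes of the sugar chain by which dystroglycan binds laminin gave 4 of 16 higher (25%, against 21.9% of all genes) and 5 lower (31.2%, against 20%), with a median of -0.03. The share called was 56.2%, against 41.9% of all genes. Genes of the enzyme that makes the mannose donor went both ways, with DPM3 (0.38) and DPM1 (0.33) higher and DPM2, picked after its values were seen, lower (-0.18, limma adjusted p = 0.0378). The xylosyltransferase gene RXYLT1 was also lower (-0.70).

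**Figure D4:**
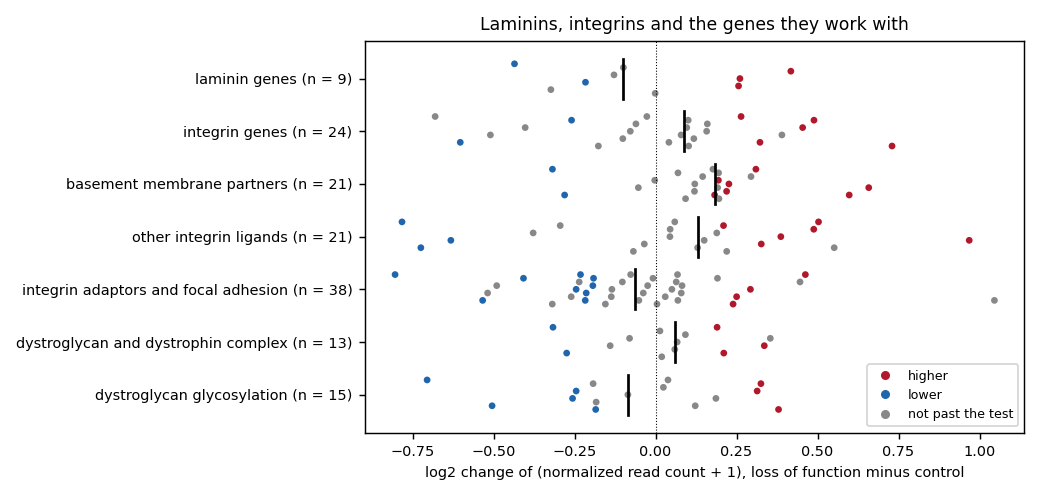
Log2 change of the normalized read count plus 1 (x axis, loss of function minus control) of the laminin genes, integrin-named genes and genes of the 5 lists of partners whose values are reported, 1 dot per gene. Red and blue dots rose or fell at a limma adjusted p under 0.05, black bars are medians, and each row holds genes on both sides of 0.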

How the data were processed

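Poly(A) RNA libraries of 50 bp reads, made without keeping strand, were sequenced from loss of function and control trunks, 3 libraries each, per the labels' protocols. Reads of overlapping antisense genes are therefore not told apart. The deposited gene values are a normalized signal, namely a read count per gene scaled by a size factor that is the same for all genes of a library, which can be read from the deposited values. Build Zv9 is named in the submitters' processing notes, with STAR 2.4.0j, Bowtie 0.12.9, SAMtools, DESeq 1.8.3 and HTSeq 0.5.3 and no order of use. The sources used here do not say how reads common to close copies were assigned. The values were whole multiples of 1 read in 100% of cases (tolerance 0.001 of a read), which gave back whole reads. Exon tables were not used here, since their IDs are paired with no gene. Symbols came from a table in which 18555 of 24789 IDs had one.

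The main test was limma 3.58.1 (R 4.3.3, eBayes with trend) on log2(deposited value + 1), a scale that understates changes of scarce genes. It was run on 18917 genes that reached a value of 10 in 3 or more libraries, 2-sided, with Benjamini-Hochberg adjustment over all of them and a threshold of 0.05. Because the labels name biological triplicates without saying what differed, p-values cover only the spread between libraries, which may be technical. Ratios of copies were compared by exact permutation. Alternatives used other pseudocounts (0.5 and 5), filters and scalings, no trend, a replicate block, on whole reads DESeq2 1.42.0 and edgeR 4.0.16 (TMM, quasi-likelihood test), and left out each library. The fits were also run on simulated reads, with the same noise setting for all genes and both groups and few genes changed. These data differ in both respects, so that run does not give the error rates here.

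The genes and lists were chosen with earlier results of these data known. Values per library are given for genes past the threshold, the most abundant gene of each chain class and copies that differ in call, and from each list the 4 genes with the smallest adjusted p are named. Values per library of further members, and list genes said to be picked later, were chosen after their values were seen. The values of 1 member and of 1 list gene are not reported here, although counts include them. List genes were matched by symbol or, after a final a or b was dropped, by human name. A human name could take more than the planned copy, and some planned genes found no match.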

Additional observations from a re-analysis of the deposited data

How the results depend on the processing

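Of the 12 laminin and integrin genes that passed, 8 kept their direction and passed under all 16 alternatives. They were LAMA5, lama4, LAMB1, lamb2l, itga6b, ITGA10, ITGB5 and ITGB3 (ENSDARG00000056767). Without a variance trend only 2 genes fell instead of 4, as LAMB2 and ITGA6 missed the threshold, and 6228 genes passed in all. Leaving out 1 library gave 6 to 8 members higher, 4 to 6 lower and 6077 to 8344 genes in all. No call turned its direction under these alternatives. Signs turned in genes that did not pass: ITGA5 was -0.012 after quantile normalization, and leave-one-out ranges of the log2 change were -0.016 to 0.16 for ITGAV, -0.15 to 0.099 for ITGA3, -0.0080 to 0.21 for ITGA11 (ENSDARG00000036086), -0.065 to 0.076 for lamc1, -0.22 to 0.0043 for ITGB1 (ENSDARG00000053232), -0.10 to 0.31 for ITGA2, -0.20 to 0.82 for itga2.3 and -0.022 to 0.24 for itgb3bp. Quantile normalization moved lamc1 to -0.10 (limma adjusted p = 0.247), outside its leave-one-out range. It also lowered LAMB2 to -0.33 and LAMA5 to 0.19, and raised the scarcer itga3a to 0.56. The causes were not tested. The 95% interval reached past a 2-fold change for ITGA9, itgb2, itgb7 and ITGB3 (ENSDARG00000045070), with at most 38 reads in any library, and for itga2.3, whose controls ran from 37.5 to 157 normalized reads. The 6 untested genes had at most 17 reads in any library. The part of depth in these intervals was not tested.

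With the replicate number as a block, 8 members were higher and 4 lower and 7814 genes passed in all. That fit has fewer degrees of freedom left per gene. Its calls therefore lean more on variances pooled across genes and are a weak check. Same-numbered libraries did not deviate together (Pearson's r across genes -0.075, 0.00793 and -0.0216). These values gave no sign of pairing by number, but they cannot exclude it, since noise of scarce genes enters them.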
